A study of Mus musculus with 24 samples.

Results

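WT pLV2 line 1 is a line of mouse embryonic stem cells in which the transcription factor DUX can be switched on with doxycycline (DOX), and its 4 libraries, 2 with and 2 without DOX, are described here out of 24 in the series. The libraries were taken by their titles. The titles name an ESC line with a TRE-DUX construct, the genotype WT and the tag pLV2, and the number after that tag is read as a line number. All 4 are from KH2 cells, an embryonic stem cell line built to express a doxycycline transactivator, and DOX was given for 16 h. The cells were kept in medium with serum and LIF, on gelatin or on a layer of growth-arrested feeder fibroblasts, and the labels do not say which surface each library came from. Both libraries with DOX in the title carry a treatment tag of no treatment, so the level of Dux itself is given first. Neither the meaning of pLV2 is given, nor whether the line is 1 clone, or whether the 2 libraries of a group were separate cultures. The p-values therefore measure only the spread between replicate libraries, pooled over the 16 in the fit.

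The other libraries in the fit were 4 of WT pLV2 line 2, 4 of TRIM24-KO pLV2 and 4 of TRIM33-KO pLV2, each group of 2 with or without DOX and all carrying the same construct. They served to estimate the spread between replicates, and line 2 served for a comparison of the DOX effect. The fitted spread (biological coefficient of variation) was 8.73% over the 16 libraries and 4.87% with the 4 line 1 libraries fitted alone. Gene counts per library were 13657694 and 14464058 without DOX and 12734248 and 13284435 with DOX. Counts agreed closely within line 1: the chi-square statistic between its replicates was 2.33 per degree of freedom without DOX and 4.81 with DOX, where 1 is sampling noise alone. The same statistic reached 300.2 between the TRIM24-KO libraries with DOX, in 1 of which the gene CT010467.1 took 30.4% of the gene counts, against 0.525% to 0.893% in line 1. Leaving out that library and the like one of TRIM33-KO with DOX raised the count of genes whose effect differed between lines from 44 to 68.

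DUX is a double homeobox transcription factor of the early embryo. In mouse it is transcribed at the 2-cell stage, binds endogenous retroviruses of the MERVL type and the promoters of early embryonic genes, and turns them on. Cultured embryonic stem cells enter a like state rarely and for a short time, and forced expression of Dux brings it about in many cells. Known members of that programme are the Zscan4 genes, which act on telomeres and genome stability, and several multicopy gene families that lie in tandem arrays.

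The promoters of 4 Zscan4 genes are shown because these genes were among those that rose most and because they share a TATA-type element within a nearly identical stretch. The sequences are from RefSeq (GRCm38.p6), read 5′ to 3′ on the gene's strand and aligned on TATAAA, in capitals, and all lie upstream of the annotated start. They are chr7:10905051-10905126 on the minus strand for Zscan4b, chr7:11005646-11005721 on the plus strand for Zscan4c, chr7:11166183-11166258 on the minus strand for Zscan4d and chr7:11397839-11397914 on the plus strand for Zscan4f.
Zscan4b: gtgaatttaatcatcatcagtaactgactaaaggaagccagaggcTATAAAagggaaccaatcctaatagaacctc
Zscan4c: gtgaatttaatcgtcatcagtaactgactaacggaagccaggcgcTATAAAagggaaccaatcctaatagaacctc
Zscan4d: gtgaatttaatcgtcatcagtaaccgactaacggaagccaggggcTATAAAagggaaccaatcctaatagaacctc
Zscan4f: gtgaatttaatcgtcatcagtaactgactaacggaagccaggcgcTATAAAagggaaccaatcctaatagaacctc
Of the 76 bases, 71 were the same in all 4 windows, and the windows of Zscan4c and Zscan4f were identical. The first base of TATAAA lay 31 bases before the annotated start in Zscan4b and Zscan4f, 54 in Zscan4c and 65 in Zscan4d. The transcripts are close copies too, so how reads were divided among these genes is uncertain, and the sum over the cluster is more certain than any member.

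A second set of promoters is shown because genes of different families share another TATA-type string, ATATAAG, in capitals. The windows are chr4:90218746-90218818 on the plus strand for Zfp352, a zinc finger gene, chr3:93676315-93676387 on the minus strand for Tdpoz1, chr13:120262993-120263065 on the plus strand for AF067061, of the Tcstv group, and chr1:85603892-85603964 on the minus strand for Sp110, a nuclear body gene.
Zfp352: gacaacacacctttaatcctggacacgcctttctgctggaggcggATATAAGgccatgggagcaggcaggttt
Tdpoz1: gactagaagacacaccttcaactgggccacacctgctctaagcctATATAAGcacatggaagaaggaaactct
AF067061: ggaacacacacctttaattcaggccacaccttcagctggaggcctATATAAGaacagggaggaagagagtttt
Sp110: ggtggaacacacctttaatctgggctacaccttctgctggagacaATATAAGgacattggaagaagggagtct
The windows are alike in bases outside the string too, most plainly those of Zfp352, AF067061 and Sp110. Whether they are copies of a common longer element was not tested. This string was chosen after the promoters of rising genes had been read. Searched on both strands of the 300 bases from 250 before to 50 after the start, ATATAAG was present in 21 of 215 promoters of genes that rose by a fitted log2 fold change of at least 4 (9.77%) and in 160 of 11616 promoters of all genes tested (1.38%). The share was 1.31% for genes that fell, 11 of 837. TATAAA was present in 47 of the 215 promoters (21.9%), in 856 of the 11616 (7.37%) and in 47 of the 837 (5.62%). Over all rising genes with a promoter, whatever the fold, ATATAAG was present in 35 of 954 (3.67%) and TATAAA in 117 (12.3%). Over all 27025 promoters in the RefSeq table, including genes not tested here, the shares were 14.2% for TATAAA and 2.61% for ATATAAG. The 2 strings can overlap only at their ends. Related genes have related promoters and are not independent, the table holds a promoter for 215 of the 736 genes of the first group, and a match is only a string of letters.

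Dux, listed as Duxf3 in the annotation used (chr10:58229979-58232675, minus strand), had 1 and 1 counts without DOX and 95 and 110 counts with DOX. As CPM, counts scaled to a common library size, this is 0.0665 ± 0.0030 without DOX and 7.78 ± 0.77 with DOX (mean ± SD over 2 libraries, here and below). The groups did not overlap, and both libraries with DOX in the title stood high, whatever their treatment tag. The ratio of counts was 117, with a 95% counting interval of 32 to 974, and the difference passed edgeR's quasi-likelihood test with Benjamini-Hochberg adjustment (adjusted p = 3.62e-08). Counts for Dux do not separate transcripts of the construct from those of the resident gene copies. Duxbl1, a related double homeobox gene, had 9 and 8 counts without DOX and 156 and 179 with DOX and rose by 4.47 ± 0.36 (log2 fold change ± SE, here and below). Duxbl3 had 3 and 7 counts without and 8 and 8 with DOX and did not pass the test (0.86 ± 1.15). Duxbl2 had 0 and 0 counts without and 8 and 8 with DOX, too few to be tested. The sequences of the Duxbl copies are alike, so their counts may be shared.

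Across the transcriptome, 1801 of 18079 genes rose with DOX (9.96%) and 1106 fell (6.12%) at an adjusted p under 0.05. The rises were large and the falls small. The median log2 fold change was 2.25 among the genes that rose and -0.41 among those that fell, beside -0.03 over all genes tested. A log2 fold change of at least 1 was reached by 1202 of the rising genes and 59 of the falling ones. Among the rising genes, 392 had 0 counts in both libraries without DOX, and when these are placed at the fold that a floor of 3 counts per library allows, 472 of the rising genes reached a log2 fold change of 4 or more. Among genes that fell with a mean of at least 50 counts, 6 of 1032 fell by 1 or more. The number of falling genes depends on single libraries: it was 280 without the first and 258 without the second library without DOX, 519 without the first and 316 without the second library with DOX, and 667 with DESeq2. It was 1730 with the 4 line 1 libraries fitted alone. In bulk RNA, a change in every cell and a larger change in some of the cells cannot be told apart.

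**Figure D1:**
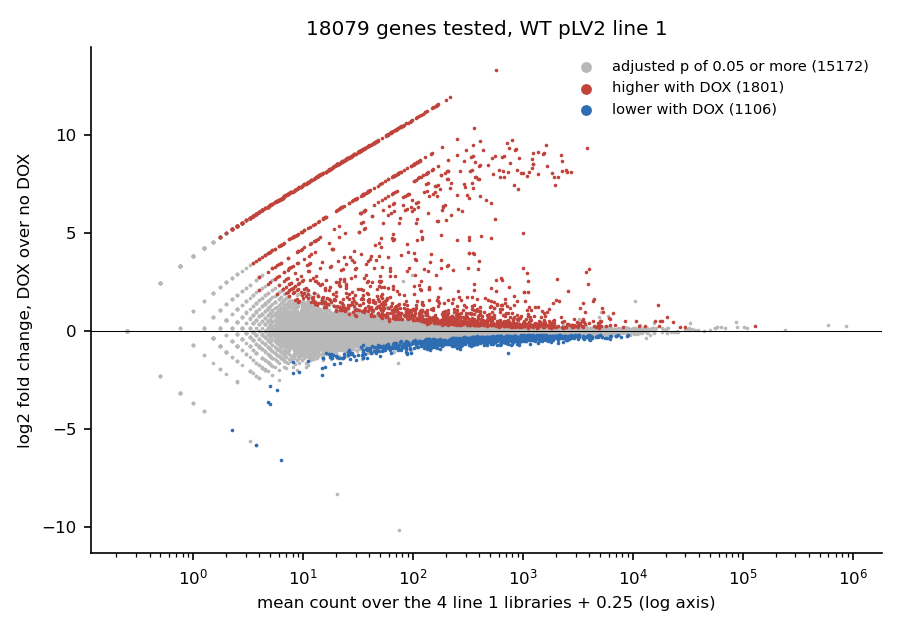
Each point is 1 gene, with its mean count over the 4 line 1 libraries plus 0.25 on a log axis and its log2 fold change (DOX over no DOX) on the vertical axis; colours mark the 1801 genes higher and the 1106 lower with DOX. Higher genes reach far from 0 at all but the highest counts, and the diagonal lines at the upper left are genes with 0 or few counts without DOX; lower genes lie close to 0.

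The Zscan4 cluster on chromosome 7 rose as a whole: 9 of 9 members passed the test, with a median log2 fold change of 8.20 and a range of 7.86 to 9.33, where 9.96% of all genes tested rose. The summed level of the cluster was 10.1 and 8.8 CPM without DOX and 2798 and 3425 CPM with DOX. Zscan4c had 22 and 19 counts without DOX and 4515 and 5464 with DOX. Zscan4a went from 17 and 10 counts to 6876 and 8452. Every member had counts in both libraries without DOX, above 3 in each. Zscan4-ps1, Zscan4-ps2 and Zscan4-ps3, named as pseudogenes, rose by 8.52, 8.06 and 8.20. The annotation used lists them as protein coding and lists Zscan4a as an unprocessed pseudogene.

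Other multicopy families of the 2-cell programme rose as well, beside the 9.96% of all genes that rose. All 10 genes of the Tcstv and Tdpoz families rose, with a median of 8.74, or 7.64 with the genes that had no counts without DOX placed at their lower bound. Of these 10, 8 had 3 counts or fewer in both libraries without DOX and passed the filter on low counts only through other groups. Their share of risers is partly set by that filter. Tdpoz1 had 0 and 0 counts without DOX and 231 and 286 with DOX, at least 98.3-fold higher against a floor of 3 counts per library. Tcstv1 went from 4 and 1 counts to 747 and 875. All 5 tested members of the Usp17l family of deubiquitinases rose, from 7.23 to 9.58 with a median of 7.85, and Usp17lc had 5 and 8 counts without DOX and 2704 and 3339 with DOX. All 7 tested Eif1a-like genes, related to a translation initiation factor, rose with a median of 8.18. Gm5039, of that group, went from 7 and 13 counts to 3919 and 4901. The groups did not overlap in any member that rose, in these families or among the Zscan4 genes.

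The oocyte-specific homeobox (Obox) genes and the PRAME-related genes were less even, beside the 9.96% of all genes that rose. Of 55 Obox genes and pseudogenes in the annotation, 21 were tested and 18 rose, and 18 had no count in any line 1 library. Of the 21, 20 had 3 counts or fewer in both libraries without DOX. They passed the filter on low counts only through other groups, so their share of risers is partly set by that filter. The median over the tested members was 6.98, or 3.44 with genes without counts at their lower bound. Obox4-ps27 had 0 and 0 counts without DOX and 217 and 297 with DOX, at least 97.7-fold higher. Obox6, the member with the most counts before induction, went from 18 and 13 to 65 and 98 and rose by 2.57. Of 14 Pramef and Pramel genes, 9 were tested and 6 rose. Pramef25 went from 9 and 11 counts to 1971 and 2370, and Pramel1 from 39 and 41 to 119 and 131. Pramef12, the member with the highest count in this line before induction, had 654 and 694 counts without DOX and 492 and 472 with DOX and did not pass the test.

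Among 2-cell markers that exist in 1 or few copies, 8 of 10 tested genes rose, with a median of 7.42, beside 9.96% of all genes. Tmem92, a transmembrane protein gene, had 3 and 10 counts without DOX and 2871 and 3376 with DOX and rose by 9.07 ± 0.26 (adjusted p = 1.38e-12). Zfp352 went from 3 and 2 counts to 678 and 912, a ratio of 363 with a 95% counting interval of 155 to 1120. Sp110 went from 7 and 30 counts to 3358 and 4308. Gata2 and Zfp750, also on this list, had log2 fold changes of -0.02 and 0.02 and did not pass the test. Ddit4l, a relative of a stress-induced inhibitor of mTOR signalling, had the smallest rise on the list and the highest level before induction among those that rose, with 43 and 56 counts without DOX and 580 and 763 with DOX.

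**Figure D2:**
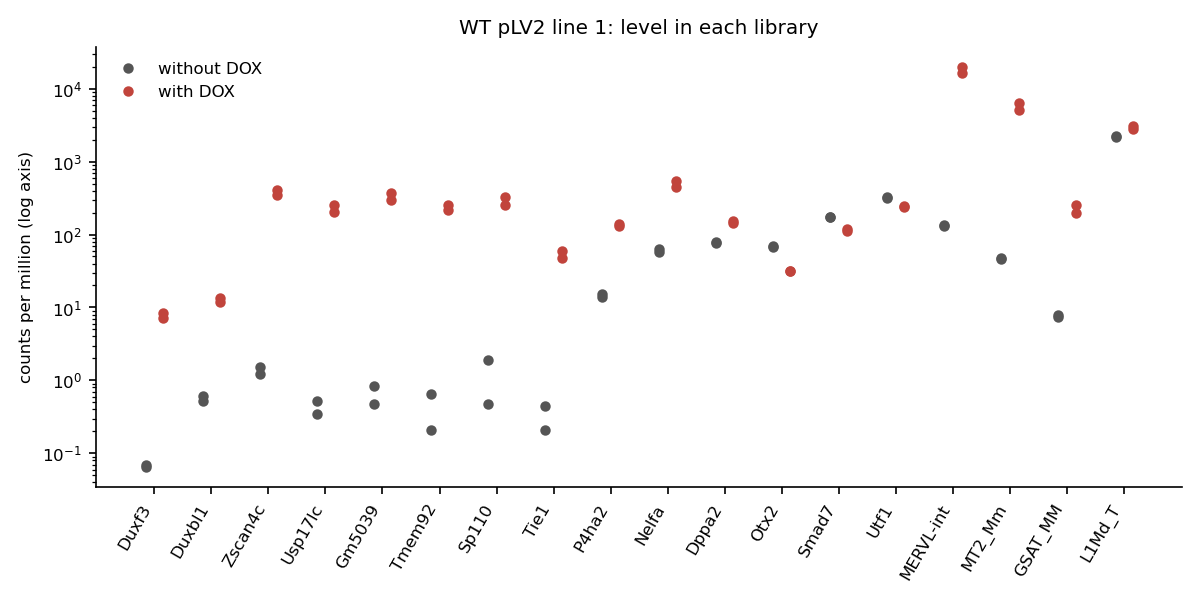
Points give CPM on a log axis in each of the 4 line 1 libraries for 14 genes and 4 repeat subfamilies, grey without and red with DOX. MERVL-int has the highest level with DOX, Otx2, Smad7 and Utf1 are lower with DOX, and L1Md_T, with a log2 fold change of 0.41, did not pass the test.

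By the smallest p-value, the genes that rose include several that are not standard 2-cell markers. Tie1, a receptor tyrosine kinase of endothelial cells, had 3 and 7 counts without DOX and 627 and 777 with DOX and rose by 7.29 ± 0.21 (adjusted p = 1.38e-12). P4ha2, a subunit of collagen prolyl 4-hydroxylase, was transcribed before induction, with 225 and 216 counts, and reached 1716 and 1866 with DOX, a rise of 3.21 ± 0.10 (adjusted p = 3.34e-12). The rest of the 12 genes with the smallest p were Tmem92, Gm11543, Gm4858, Gm13119, B020031M17Rik, Zscan4-ps2, Usp17lc, BC080695, Gm5039 and Gm12794, which rose by 7.46 to 9.12. The 6 with the largest fold had 0 counts in both libraries without DOX. Gm13043 (chr4:143511343-143517831, plus strand) led them, with 1022 and 1261 counts with DOX, at least 434-fold higher.

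Some of the rising genes lay in arrays, and among genes tested pseudogenes and lincRNAs held a larger share of risers than protein-coding genes did. Of 1202 genes that rose by a log2 fold change of at least 1 (6.65% of those tested), 192 (16.0%) lay in the 15 windows of 1000000 bases with 8 or more such genes. These windows were picked for that count, and they held 272 of the 18079 genes tested. The window chr12:87000001-88000000 held 23 such genes among 42 tested and chr12:88000001-89000000 held 19 among 21, among them Gm2016, Gm5662 and Gm5039 of the Eif1a-like list. The window with the Obox genes, chr7:15000001-16000000, held 17 among 24, the window with Tdpoz genes, chr3:93000001-94000000, held 14 among 21, and that with Pramef genes, chr4:143000001-144000000, held 14 among 21. Of 172 unprocessed pseudogenes tested, 96 rose (55.8%), and so did 185 of 764 processed pseudogenes (24.2%) and 150 of 613 lincRNAs (24.5%), against 1163 of 14244 protein-coding genes (8.16%). Other noncoding classes lay on both sides of the protein-coding share, with 57 of 372 antisense genes (15.3%), 22 of 173 miRNAs (12.7%), 21 of 281 processed transcripts (7.47%) and 6 of 237 snoRNAs (2.53%). Falling genes were of the protein-coding kind in 1078 of 1106 cases. Pseudogenes and arrays share sequence with their relatives, so part of these counts may belong to a neighbour. Only genes past the filter on low counts enter the shares above. Of the 1801 rising genes, 685 had 3 counts or fewer in both libraries without DOX and passed it only through other groups. Shares in classes often silent without DOX are therefore partly set by the filter.

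Genes said to act upstream of Dux were measured next. Nelfa, a subunit of the negative elongation factor, had 843 and 980 counts without DOX and 5848 and 7215 with DOX and rose by 3.03 ± 0.14 (adjusted p = 6.23e-11). Dppa2, a chromatin protein of early development, went from 1113 and 1220 counts to 1911 and 1995 and rose by 0.94 ± 0.08. Its partner Dppa4 had 1343 and 1464 counts without and 1233 and 1243 with DOX, and Trp53 had 4626 and 4932 without and 4040 and 4156 with DOX. Neither passed the test, and the fitted changes, 0.01 and -0.03, changed sign in at least 1 alternative each.

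The repressors of the 2-cell state moved little. Of 24 such genes 2 rose and 5 fell, and the extremes were -0.41 and 0.24, where 9.96% of all genes tested rose and 6.12% fell. With the 4 libraries fitted alone 7 rose and 6 fell, where 15.4% of all genes rose and 10.8% fell in that fit. Lin28a, an RNA-binding protein, fell by 0.41 ± 0.07, from 4270 and 4336 counts to 2893 and 2760. The members of the non-canonical Polycomb complex Mga, L3mbtl2 and Max had values of -0.33, -0.29 and -0.29 and passed the test, and each of those calls was lost when some single library was left out. Trim28, the corepressor of retroviral elements, had 25390 and 27043 counts without and 26627 and 27531 with DOX, a log2 fold change of 0.24 that was no longer called without the second library with DOX. Its relatives Trim24 (0.00 ± 0.10) and Trim33 (-0.18 ± 0.07) did not pass the test. In this family of 4 genes, 1 was called lower with library sizes from genes and repeats, and 1 with the 4 libraries fitted alone.

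Pluripotency genes stayed within a narrow range. Of 19 genes, 4 rose and 2 fell, with a median of -0.05 and extremes of -0.44 and 0.81. The shares over all genes were 9.96% for rises and 6.12% for falls. With library sizes from genes and repeats 1 rose. With the 4 libraries fitted alone 4 fell, beside 10.8% of all genes in that fit. Pou5f1 had 11572 and 12533 counts without and 9560 and 10032 with DOX, a log2 fold change of -0.11 that did not pass the test. Utf1, a chromatin factor of undifferentiated cells, fell by 0.44 ± 0.06, from 4822 and 4976 counts to 3119 and 3204. Dppa3, a maternal factor, had 103 and 102 counts without and 138 and 177 with DOX and rose by 0.81 (adjusted p = 0.0495). Of 8 tested genes of the primed state, 1 rose and 3 fell, or 5 with the 4 libraries fitted alone, beside the same 10.8%. Otx2, a homeobox factor that drives exit from the naive state, had the smallest p of all falling genes: 982 and 1074 counts without DOX and 421 and 417 with DOX, a fall of 1.10 ± 0.13 (adjusted p = 1.30e-05). Sox3, on the same list, rose by 1.91 ± 0.22, from 35 and 34 counts to 115 and 113.

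Some signalling genes were lower. In the TGF-beta, Nodal and BMP list 4 of 14 tested genes fell and 2 rose, beside 6.12% of all genes that fell and 9.96% that rose. With the 4 libraries fitted alone 7 fell, beside 10.8% of all genes in that fit. Smad7, the inhibitory SMAD, had 2566 and 2741 counts without and 1572 and 1485 with DOX and fell by 0.60 ± 0.07. Skil, a nuclear SMAD corepressor, fell by 0.47 and the ligand gene Bmp4 by 0.62, and Id3, a BMP target, rose by 0.87 from 141 and 140 counts to 215 and 235. In the LIF, FGF-ERK and Wnt list 6 of 16 fell, among them Stat3, Dusp6 and Lef1, whose calls were each lost without some single library, and Axin2, a Wnt target, rose by 0.68 from 338 and 314 counts to 437 and 476. The other falling genes with the smallest p were Myrf, Fzd7 (a Wnt receptor), Notch4, Kat2b (an acetyltransferase), Plekhg5, Rara (a retinoic acid receptor), Zfp532, Slc7a7 and Elmsan1, which fell by 0.47 to 0.71. Ccnd2, cyclin D2, fell most among genes with a mean of at least 50 counts, by 1.14 ± 0.19, from 126 and 126 counts to 47 and 53. In the list of cell cycle and DNA replication genes 5 of 23 fell and 1 rose, with a median of -0.12, beside the same 6.12% and 9.96% over all genes. When the 4 libraries were fitted alone 9 fell, beside 10.8% of all genes in that fit.

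Stress and death genes gave mixed results. Of 17 tested p53 targets and apoptosis genes 4 fell and 1 rose, beside 6.12% of all genes that fell and 9.96% that rose, and 9 fell when the 4 libraries were fitted alone, beside 10.8% of all genes in that fit. Pmaip1 rose by 0.78 ± 0.12, from 963 and 1044 counts to 1456 and 1554, and Bbc3, which also promotes apoptosis, fell by 0.71 ± 0.13, from 366 and 361 to 190 and 199. Cdkn1a, the p53 target that halts the cell cycle, had 446 and 454 counts without and 333 and 302 with DOX and did not pass the test. Of 17 genes of the integrated stress response and the unfolded protein response, 4 fell and 2 rose. Dnajb9, a chaperone of the endoplasmic reticulum, rose by 1.08 ± 0.15 and Ppp1r15a, a phosphatase subunit, by 0.51 ± 0.10, and Xbp1, a factor of the unfolded protein response, fell by 0.54 ± 0.09. Of 9 heat shock genes 3 rose, and Hspa1a went from 30 and 31 counts to 80 and 83. Of 9 genes for nucleic acid sensing and interferon response that could be tested, 0 rose and 1 fell, Ddx58, the RNA sensor also called RIG-I, by 0.63 ± 0.11, and Ifnb1, Ifit1 and Ifit3 had no count in any line 1 library.

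RNA processing, methylation and mitochondrial genes also held members that changed. Over all genes tested 9.96% rose and 6.12% fell. Of 25 splicing genes 6 rose and 1 fell. Srsf5, a serine and arginine rich splicing factor, rose by 1.00 ± 0.07, from 2502 and 2885 counts to 4589 and 4809, and Rbm25, another splicing regulator, rose by 0.92 ± 0.08. Of 10 genes of nonsense-mediated decay 0 rose and 1 fell. In the DNA methylation machinery 5 of 9 fell and 0 rose, with values from -0.53 to -0.28 for those that fell, and the calls of Dnmt3a, Dnmt3l, Tet2 and Tdg were each lost in at least 1 alternative. With DESeq2, and without CT010467.1, 3 fell. Of 28 tested mitochondrially encoded genes 6 rose, 0 fell and 24 had a positive change, and 17 rose when the 4 line 1 libraries were fitted alone, beside 15.4% of all genes in that fit. mt-Cytb, cytochrome b, rose by 0.73 ± 0.13, from 15963 and 17368 counts to 23205 and 25120. Of 16 cholesterol synthesis genes 4 fell and 1 rose, Dhcr7, the last enzyme of a synthesis branch, by 0.78 ± 0.10, and without CT010467.1 in the fit 2 fell and 2 rose.

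**Figure D3:**
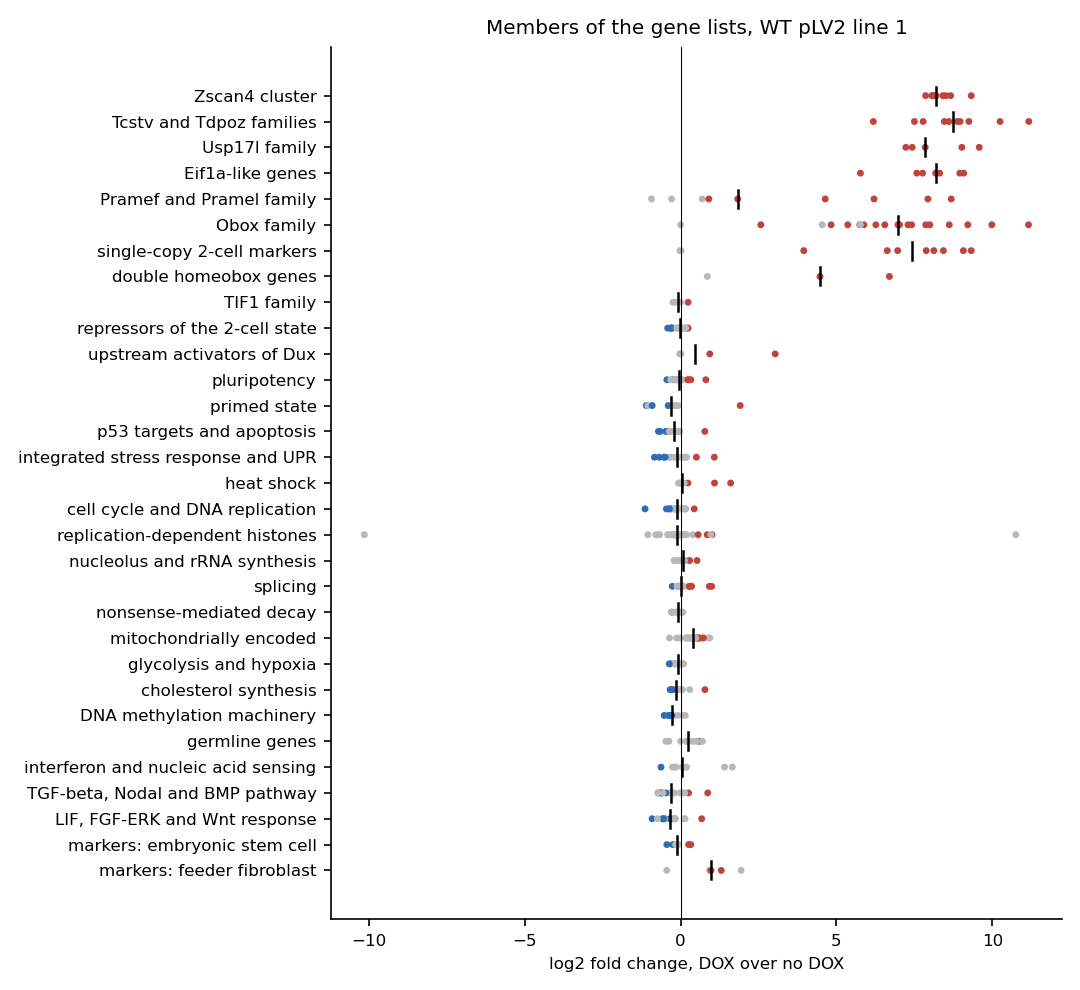
Each row is a gene list and each point a tested member, placed by its log2 fold change (DOX over no DOX); red points rose, blue points fell and grey points did not pass the test, and black bars are medians. The 2-cell lists lie far to the right with medians between 6.98 and 8.74, save the PRAME-related genes at 1.83, and most other lists lie near 0.

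Markers of other cells were read for all lists in the same way. Of 12 feeder fibroblast markers, 5 were tested and 2 rose, where 9.96% of all genes rose and 6.12% fell: Fbn1 by 1.30 ± 0.21, from 37 and 43 counts to 82 and 91, and Thy1 by 0.97 ± 0.16, from 91 and 99 to 153 and 174. The summed level of the 12 was 17.1 to 17.4 CPM without DOX and 25.8 to 28.5 CPM with DOX, and 4 of the 5 tested had a positive change. Col1a1 had 26 and 23 counts without DOX and 42 and 40 with DOX and did not pass the test, and Pdgfrb had 92 and 90 without and 55 and 62 with DOX and did not pass either. Col3a1, Lum, Dcn, Postn and Fap had no count in any of the 4 libraries. The summed level of 8 embryonic stem cell markers was 3695 to 3747 CPM without and 3644 to 3699 CPM with DOX. Of 7 trophoblast markers 6 were tested and 1 fell, Eomes, by 0.90 ± 0.16. Among the endoderm, mesoderm, neural and blood markers 0 of 9 tested genes passed the test. The part of these markers in the other results was not tested.

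In the miR-290 cluster, the main microRNA cluster of embryonic stem cells, 4 of 7 hairpin genes rose, beside 22 of all 173 miRNA genes tested (12.7%). The cluster was looked at after its values were seen. Counts were of the hairpin genes in total RNA, not of mature microRNAs, and may come from the primary transcript. The mature sequences of the 3p arms of the 4 genes that rose are shown, without the 5p arms (RefSeq, GRCm38.p6, all on the plus strand of chromosome 7), with the seed, bases 2 to 8, in capitals, since seeds decide the targets.
mmu-miR-290a-3p: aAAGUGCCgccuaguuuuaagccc
mmu-miR-291b-3p: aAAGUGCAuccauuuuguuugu
mmu-miR-293-3p: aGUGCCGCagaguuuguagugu
mmu-miR-295-3p: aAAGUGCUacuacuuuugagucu
The seed of miR-295-3p is shared with miR-291a-3p and miR-294-3p of the cluster. Mir290a had 53 and 58 counts without and 89 and 89 with DOX and rose by 0.87 ± 0.20. Mir291b went from 90 and 110 counts to 175 and 156, Mir293 from 45 and 51 to 73 and 103 and Mir295 from 23 and 39 to 78 and 62. Mir294, Mir291a and Mir292 had positive changes of 0.99, 0.77 and 0.44 that did not pass the test.

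Repeat subfamilies rose in a larger share than genes did, and few fell. A subfamily count sums all its copies in the genome, also those that lie inside genes. Of 965 subfamilies tested 591 rose (61.2%) and 3 fell (0.311%), with a median log2 fold change of 0.59 over all 965, and 872 had a positive change. Repeats made up 7.63% and 7.58% of all gene and repeat counts without DOX and 11.763% and 11.999% with DOX. The internal part and the LTR of MERVL, the retrovirus that marks the 2-cell stage, accounted for 0.018% and 0.018% of these counts without DOX and 1.94% and 2.29% with DOX. Without these 2 subfamilies, the repeat share was 7.61% and 7.56% without DOX and 9.82% and 9.71% with DOX, so the rise was not confined to them.

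MERVL-int had 1990 and 2056 counts without DOX and 213071 and 261345 with DOX and rose by 7.06 ± 0.20 (adjusted p = 1.18e-13). Its LTR, MT2_Mm, went from 684 and 726 counts to 67003 and 83897 and rose by 6.93 ± 0.21. Related elements rose less: MERVL_2A-int by 2.97 ± 0.14, from 922 and 1044 counts to 6266 and 7189, and MT2B1 by 2.73 ± 0.14. In the ERVL family 53 of 95 tested subfamilies rose, with a median of 0.66, and in the ERVL-MaLR family 72 of 91 rose, beside 61.2% of all subfamilies, led by ORR1A1-int at 2.86 ± 0.14.

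Single members of other classes rose strongly as well, while 61.2% of all subfamilies rose. GSAT_MM, the major satellite of pericentromeric heterochromatin, had 114 and 114 counts without DOX and 2573 and 3349 with DOX and rose by 4.89 ± 0.24. In the ERV1 family 57 of 103 rose, among them RLTR6B_Mm at 4.62 ± 0.24, from 163 and 183 counts to 3208 and 4257, and MuRRS-int at 3.80 ± 0.16, from 76 and 96 to 1015 and 1080. The ancient element X7C_LINE of the CR1 family went from 8 and 13 counts to 313 and 328, a rise of 5.11 ± 0.25, while 4 of 13 subfamilies of its family rose. ERVB4_3-LTR_MM, of the ERVK family, had 0 and 0 counts without DOX and 83 and 89 with DOX. In the ERVK family as a whole 189 of 271 rose and 2 fell. The intracisternal A particle IAPEz-int rose by 0.93 ± 0.12, from 3329 and 3830 counts to 5677 and 6215.

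LINE and SINE families rose by small amounts in many members, where 61.2% of all subfamilies rose. Of 127 L1 subfamilies 100 rose, with a median of 0.67 and a highest value of 2.77 in Lx2A, which went from 60 and 81 counts to 397 and 445. L1Md_T, a young and active subfamily, had 32139 and 34729 counts without and 36575 and 41132 with DOX, a log2 fold change of 0.41 ± 0.40 that did not pass the test. All 5 tested B2 SINEs rose, with a median of 0.70, and 14 of 16 Alu-type (B1) subfamilies rose with a median of 0.25. The larger DNA transposon families had lower shares of risers, 26 of 68 for hAT-Charlie, 21 of 41 for TcMar-Tigger and 5 of 25 for hAT-Tip100. Smaller ones varied, with 5 of 8 for hAT-Blackjack and 0 of 8 for TcMar-Tc2. The 3 subfamilies that fell had few counts: RLTR53B_Mm, RLTR9A2 and MamRep1879.

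**Figure D4:**
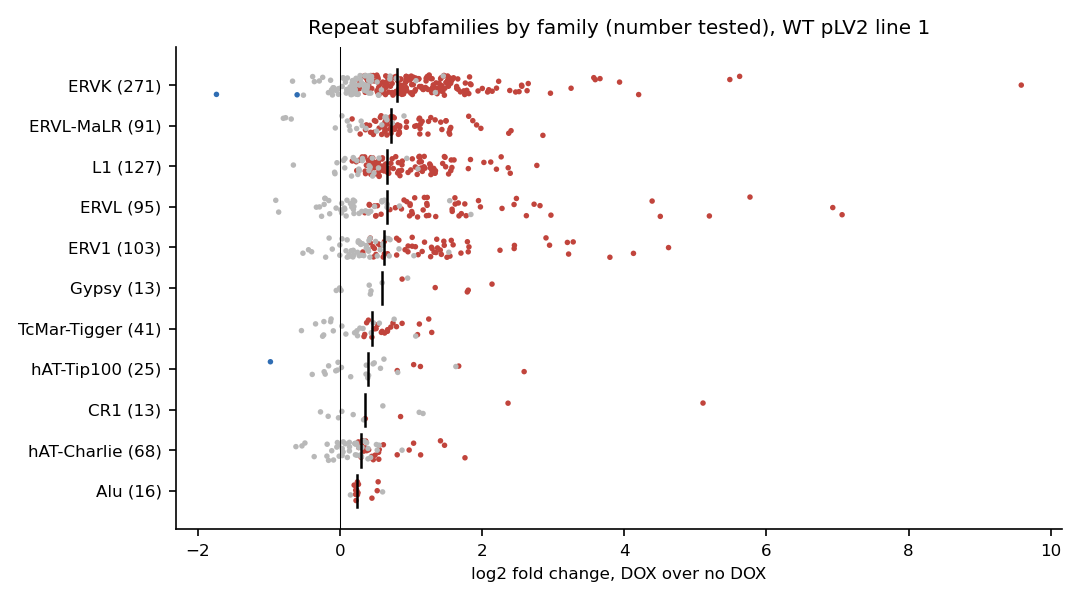
Repeat subfamilies by family, for families with 10 or more tested, placed by log2 fold change (DOX over no DOX), with red points for those that rose, blue for those that fell, grey for the rest and black bars for medians; vertical scatter within a row has no meaning. Every family median is above 0, from 0.25 in Alu to 0.80 in ERVK, and MERVL-int and MT2_Mm stand at 7.06 and 6.93 in the ERVL row.

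The DOX effect of line 1 was compared with that of the second WT line, which was given DOX for 16 h too and has its own control libraries. In line 2, 2289 of the 18079 genes tested rose and 2499 fell, where 1801 rose and 1106 fell in line 1. Of the genes that rose in line 1, 1496 also rose in line 2, 83.1% of the line 1 list and 65.4% of the line 2 list. Of those that fell in line 1, 823 also fell in line 2, 74.4% and 32.9% of the lists. The difference itself passed the test for 44 of 18079 genes (0.243%), and the signed difference, line 1 minus line 2, was negative for 34 of them (0.188%) and positive for 10. For 1385 genes its unadjusted p was under 0.05. For repeat subfamilies it passed for 200 of 965 (20.7%), and for each of the 200 the effect was smaller in line 1. The median difference over all tested was 0.04 for genes and -0.33 for repeat subfamilies.

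MERVL-int was among the 200. In line 2 it had 2104 and 1490 counts without DOX and 746451 and 602194 with DOX, a share of 4.74% and 3.92% of counts, where line 1 with DOX had 1.48% and 1.73%. Its effect was smaller in line 1 by 1.98 on the log2 scale (SE 0.22, adjusted p = 6.96e-05). Among ERVK subfamilies 85 of 271 had a smaller effect in line 1, among L1 33 of 127, among ERVL-MaLR 28 of 91, among ERVL 18 of 95 and among ERV1 18 of 103, beside the background of 20.7%. Dux itself had 95 and 110 counts in line 1 with DOX and 58 and 53 in line 2 with DOX, or 7.78 and 4.19 CPM on average, and 0 counts in line 2 without DOX. The difference of its DOX effect was -2.25 (SE 1.38) and did not pass the test (adjusted p = 0.79). With 1 and 1 counts in line 1 and 0 in line 2 without DOX, the test cannot decide whether the effects were alike.

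Among genes, the Zscan4 members Zscan4c and Zscan4d differed, by -4.31 each. Zscan4c had 22 and 19 counts in line 1 and 6 and 1 in line 2 without DOX, and 4515 and 5464 in line 1 and 16608 and 11973 in line 2 with DOX, so both arms moved the difference. Usp17le differed by -3.75 and Hspa1a, the heat shock protein gene, by -3.11. Pdzd2, Dcbld1, Zfp516, Abhd6 and Arhgap8 had the smallest p among genes with a negative difference: Pdzd2 had 207 and 189 counts without and 224 and 222 with DOX in line 1, and 67 and 49 without and 185 and 164 with DOX in line 2. Of the 10 genes with a positive signed difference, 3 changed more in line 1, and 7 had a smaller change in line 1 than in line 2. Lonrf3, a ubiquitin ligase gene, had 47 and 31 counts without and 328 and 304 with DOX in line 1, and 324 and 232 without and 594 and 483 with DOX in line 2. Hmgn3, a nucleosome-binding protein gene, had 13 and 21 counts without and 101 and 110 with DOX in line 1, and 125 and 101 without and 118 and 154 with DOX in line 2. In Lonrf3 and Hmgn3 the lines differed mainly before induction, and so they did in Pdzd2, Zfp516 and Arhgap8. Zfp516 had 78.7 CPM in line 1 and 32.7 in line 2 without DOX, and 106 and 89.6 with DOX. For Arhgap8 these levels were 34.3 and 14.2 without DOX, and 40.3 and 32.6 with DOX. Usp17le had 1.70 CPM in line 1 and 0.25 in line 2 without DOX, and 294 and 584 with DOX. The count of 44 was 9, 11, 16 and 35 as each line 1 library was left out, 118 with DESeq2 and 240 without the filter on low counts.

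**Figure D5:**
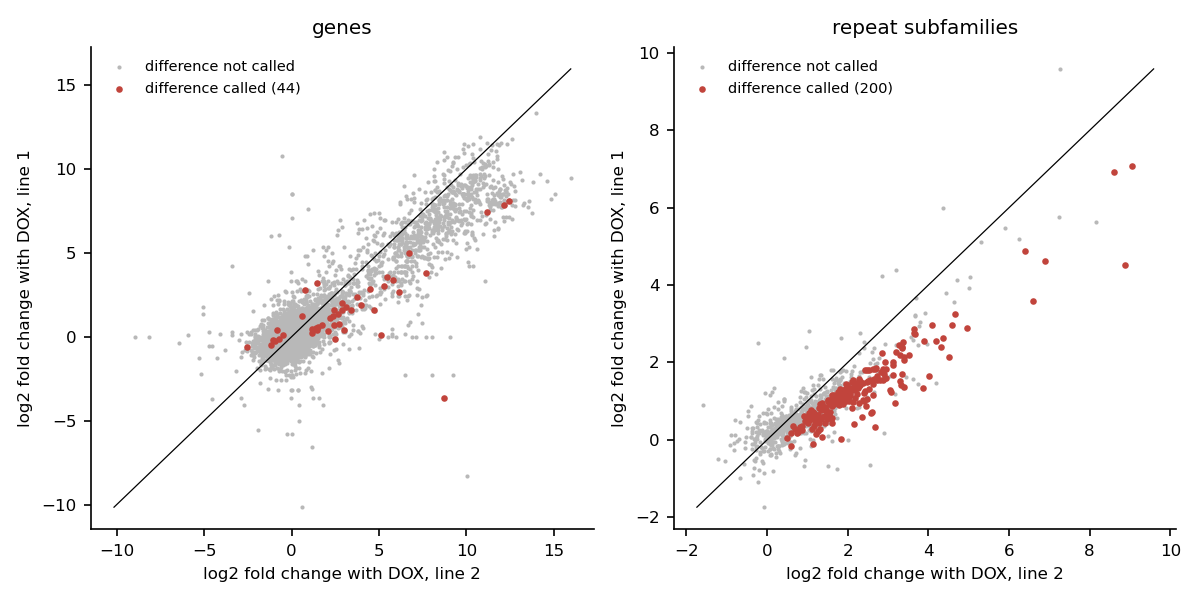
Each point is a gene (left) or a repeat subfamily (right), placed by the log2 fold change with DOX in line 2 (horizontal) and in line 1 (vertical); the line marks equal effects and red points are the 44 genes and 200 subfamilies whose difference passed the test. All 200 red subfamilies lie below the line.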

How the data were processed

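The authors deposited raw counts per library, whole numbers for 55487 gene IDs and 1146 repeat subfamilies, per the file headers. Libraries were rRNA-depleted and strand-specific, with paired 75 bp reads, per the labels' protocols. The submitters' processing notes name bcl2fastq 2.20.0, cutadapt 1.18, STAR 2.7.6a and mm10, and the counting tool and the treatment of multi-mapping reads are not given in the sources used here. IDs were matched to GENCODE M21 (GRCm38), 54435 with version, 792 without, and 260 unmatched. Each of 8 groups had its own mean in a model of the 16 pLV2 libraries, run in edgeR 4.0.16 (R 4.3.3, glmQLFit and glmQLFTest, filterByExpr, 2-sided), with library sizes and TMM factors from genes. P-values were adjusted by Benjamini-Hochberg for genes and repeats separately, with a threshold of 0.05. Line 1 minus line 2 was a contrast of DOX effects. Alternatives used other settings of edgeR, or DESeq2 1.42.0. Intervals (95%, exact) and floors (3 counts) cover counting error only.

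Genes named were Dux, Duxbl and Trim genes, the 12 rising and 12 falling called genes with the smallest p (mean of at least 50 counts, a symbol, no overlap between groups), the 6 with the largest change, up to 4 members per list, 5 per direction for the difference between lines, and 3 subfamilies per family of 10 or more. The members and lists were chosen with earlier results of these data known. Other members named in the text to fill a list's description (such as Pou5f1, Cdkn1a, Gata2, Zfp750, Obox6, Pramef12, Dppa3, MT2B1 and the fallen repeats) were chosen after their values were seen.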

Additional observations from a re-analysis of the deposited data

Results flagged for a closer look

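The difference between the DOX effects of line 1 and line 2 passed edgeR's interaction test for 44 genes and 200 repeat subfamilies, and the features below passed it among those named by rule. Values are line 1 minus line 2 on the log2 scale. The rise was greater in line 1 for Lonrf3 (1.76) and Hmgn3 (2.07). The signed difference was also positive for Pfkfb3 (0.86), Socs3 (0.62) and Gabbr1 (0.58), whose changes did not pass the test in line 1 and were smaller there in size. Socs3, Gabbr1 and Pfkfb3 had changes of 0.11, -0.12 and -0.21 in line 1 and -0.51, -0.70 and -1.08 in line 2. The effect was smaller in line 1 for Pdzd2 (-1.71), Dcbld1 (-1.09), Zfp516 (-1.02), Abhd6 (-1.73), Arhgap8 (-0.97), Zscan4c (-4.31), Usp17le (-3.75) and Hspa1a (-3.11). Each of these genes had a higher level in line 1 than in line 2 without DOX. Pdzd2, Zfp516 and Arhgap8 were higher in line 1 with DOX too.

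Among LTR retroviruses it was smaller in line 1 for MERVL-int (-1.98), MT2_Mm (-1.66), MERVL_2A-int (-1.13), ORR1A1-int (-0.78), ORR1A3 (-0.76), ORR1A1 (-0.83), RLTR6B_Mm (-2.28), RLTR6-int (-2.06), ERVB4_1B-I_MM-int (-1.64), RLTR19 (-0.85), MamGypLTR3 (-2.36) and IAPEz-int (-0.88). The same direction was found for the LINEs Lx2A (-0.87), Lx2A1 (-0.98) and L3 (-0.28), the SINEs B1_Mus1 (-0.53), B1_Mm (-0.68) and B1_Mus2 (-0.57), the DNA transposons Tigger17a (-0.79) and MER102c (-1.06), and the satellite GSAT_MM (-1.51).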

How the results depend on the processing

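The count of falling genes, 1106, was 667 with DESeq2, 1730 with only the groups compared, 59 with a log2 fold change of at least 1, and 258 to 519 as each line 1 library was left out. All changed genes numbered 1547 to 1898 in the leave-outs and 1261 with a log2 fold change of at least 1. The gene count for the difference between lines, 44, was 118 with DESeq2, 240 with no filter on low counts, 68 without 2 knockout libraries (chosen after seeing the data) and 9 to 35 in the leave-outs. Changed repeat subfamilies numbered 278 and differing ones 71 with a log2 fold change of at least 1, and differing ones 123 to 162 in the leave-outs. The cause was not tested, except that leave-outs have fewer samples. The labels do not say that replicate numbers pair libraries, and the deviations of same-numbered replicates had a correlation of 0.014 in line 1 and 0.195 in line 2. The replicate block gave 1951 falling genes and 237 differing ones.

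Of 202 named features 165 were called, 0 of these reversed, and 122 stayed on the same side in every alternative other than the fold threshold. Sign changes were limited to 5 uncalled genes. In the leave-outs Trim24 ranged from -0.03547 to 0.08428, Trp53 from -0.04743 to 0.01168, Mixl1 from -1.453 to 0.5693 and Trim66 from -0.7312 to 0.1165. With library sizes from genes and repeats Trim24 was -0.0208 and Dppa4 -0.009397. Trp53 was 0.003581 with no filter, 0.007739 with only the groups compared and 0.00152 without CT010467.1.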
